A study of Homo sapiens with 13 samples.

Results

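Complex I, the NADH:ubiquinone oxidoreductase of the mitochondrial inner membrane, was followed here through its nuclear genes in human CCRF-CEM cells, a T-cell acute lymphoblastic leukaemia line. The members were all 50 array probes that are not controls and whose gene name starts with NDUF, out of 34127 probes that are not controls. They stood for 43 genes out of 25940 gene names, of which 39 carried a subunit name and 4 were assembly factors (NDUFAF1 to NDUFAF4). All 43 were measured in each sample by a probe well above background on all 13 arrays, so none was lost to the filter on dim probes that left 17594 genes for testing. Total RNA came from 4 groups: parental cells given DMSO alone as a mock treatment (CEM PA mock, n = 3), parental cells given 5 nM FK866 for 48 h (CEM PA FK866, n = 2), resistant cells given the same mock treatment (CEM RES mock, n = 4) and resistant cells given the same 5 nM FK866 for 48 h (CEM RES FK866, n = 4). FK866 inhibits NAMPT, the enzyme that makes NAD from nicotinamide. CEM RES was a subline selected in rising FK866 and resistant to 100 nM of it, which it also met during routine culture, and the sources do not describe it as a single clone. The comparisons ask how far the complex I genes differ between the resistant and the parental line, and whether FK866 moves them in either.

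Complex I takes electrons from NADH and passes them through a flavin and a chain of iron-sulfur clusters to ubiquinone, while its membrane arm pumps protons. The catalytic core is split between nuclear genes, which encode the NADH-binding (N) and quinone-binding (Q) modules, and mitochondrial DNA, which encodes the proton-pumping core of the membrane arm. Accessory subunits surround this core, and assembly factors help to build the complex without staying in it. In NAD biology the complex is known as the main route by which mitochondrial NADH is turned back into NAD.

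The label of the cells was checked on their markers. All 12 T lineage markers that were looked up were well above background on every array, with CD3D, a chain of the T cell receptor complex, between 16.69 and 16.999 on the log2 scale. The summed T lineage signal spanned 17.44 to 17.46 in CEM PA mock, 17.37 to 17.43 in CEM PA FK866, 17.67 to 17.76 in CEM RES mock and 17.57 to 17.67 in CEM RES FK866. Of 5 B cell markers 4 were measured, and their summed signal was 11.80 to 12.01 in CEM PA mock, 11.92 to 11.98 in CEM PA FK866, 11.10 to 11.81 in CEM RES mock and 10.82 to 11.33 in CEM RES FK866. Of the 4, 2 were lower in CEM RES mock than in CEM PA mock, CD79B among them, no B cell marker was at 0, and the part of these shifts in the results below was not tested. The signal of the 2 of 5 myeloid markers that were measured summed to at most 7.52, and the keratins KRT8 and KRT18 summed to between 10.25 and 10.97 over all groups.

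Of the arrays, those of CEM RES were all scanned in session 3, on 2 slides of their own, while CEM PA was spread over sessions 1 and 2. Cell line and scan session therefore cannot be told apart in the comparison of lines, and neither can fewer copies per cell and a changed mix of cells in bulk RNA. Between 26457 and 33239 of 43118 spots per array were well above background, and replicate arrays correlated at 0.978 to 0.991. CEM RES mock replicate 1 had 773 outlier spots, where the other arrays had 195 to 344. It also had the lowest array quality weight in limma (0.436), followed by CEM PA mock replicate 1 (0.511). The labels call the replicates biological without saying how the cultures were kept apart, and the number of arrays limits the precision.

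The promoters of the subunits with the largest rises and falls that passed, among those with a promoter sequence, are shown first. They set the sequence at the start sites beside the values. RefSeq promoter windows, 250 bases before and 50 bases after the start, were found for 37 of the 43 members. The sequences below are the windows of the subunits with the largest rises and the largest falls in CEM RES mock among those with a window, on build GRCh38.p14: NDUFB11 at chrX:47144653-47144952 on the minus strand, NDUFB3 at chr2:201071751-201072050 on the plus strand, NDUFA10 at chr2:240025293-240025592 on the minus strand and NDUFA8 at chr9:122159730-122160029 on the minus strand. Capitals mark matches to the letters searched on both strands.
NDUFB11: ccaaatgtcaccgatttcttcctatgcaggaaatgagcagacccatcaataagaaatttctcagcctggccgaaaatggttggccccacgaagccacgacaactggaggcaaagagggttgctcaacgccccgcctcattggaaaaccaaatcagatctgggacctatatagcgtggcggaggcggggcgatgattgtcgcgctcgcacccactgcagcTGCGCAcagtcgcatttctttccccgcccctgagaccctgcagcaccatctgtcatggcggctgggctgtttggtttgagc
NDUFB3: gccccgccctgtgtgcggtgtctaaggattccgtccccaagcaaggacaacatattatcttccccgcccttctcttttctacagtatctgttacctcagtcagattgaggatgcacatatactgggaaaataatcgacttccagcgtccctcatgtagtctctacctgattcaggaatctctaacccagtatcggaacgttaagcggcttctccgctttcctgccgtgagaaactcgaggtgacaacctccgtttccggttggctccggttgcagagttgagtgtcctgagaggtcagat
NDUFA10: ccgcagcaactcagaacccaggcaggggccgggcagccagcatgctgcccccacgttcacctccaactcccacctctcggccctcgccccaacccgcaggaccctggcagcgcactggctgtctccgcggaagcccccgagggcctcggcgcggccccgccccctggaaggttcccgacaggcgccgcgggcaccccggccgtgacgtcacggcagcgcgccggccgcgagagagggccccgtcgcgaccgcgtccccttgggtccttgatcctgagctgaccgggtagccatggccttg
NDUFA8: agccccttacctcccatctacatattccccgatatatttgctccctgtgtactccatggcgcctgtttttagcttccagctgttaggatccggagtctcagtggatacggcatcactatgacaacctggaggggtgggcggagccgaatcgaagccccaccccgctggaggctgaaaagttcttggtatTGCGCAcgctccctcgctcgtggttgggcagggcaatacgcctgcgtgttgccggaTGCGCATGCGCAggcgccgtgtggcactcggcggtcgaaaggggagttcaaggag

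The letters searched belong to 3 factors known to act on nuclear respiratory genes: TGCGCA for the centre of the NRF1 (nuclear respiratory factor 1) site, which reads alike on both strands, CCGGAAG for the ETS site of GABPA, and AAGATGGC for YY1. None of the 3 holds another. TGCGCA occurred in 10 of 33 subunit windows (30.3%) and in 8.24% of all 35116 windows of that length. CCGGAAG occurred in 5 of 33 subunit windows (15.2%) against 10.3% of all windows, and AAGATGGC in 6 of 33 (18.2%) against 2.89%. Among the printed windows NDUFB11, which was the most raised, held 1 copy of TGCGCA, and NDUFA8, which was lower in CEM RES mock, held 3. NDUFB3 and NDUFA10, which moved in opposite directions, held none of the letters. Of the 4 assembly factor windows, that of NDUFAF4 held TGCGCA and CCGGAAG and the others held none of the 3. A match is a description of letters in a window. The windows of all genes were not limited to genes measured here or as bright as the members, and the shares were not tested. The 33 subunit windows include that of NDUFA4L2.

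Most nuclear subunits were higher in mock-treated resistant cells than in mock-treated parental cells. In CEM RES mock against CEM PA mock, 26 of 39 subunits rose and 3 fell past an adjusted p of 0.05 in limma, and 10 did not pass. Over all genes tested, 47.7% passed in this comparison, 24.7% higher and 23% lower. The median log2 difference was 0.67 over the subunits, a 1.6-fold rise, and 0.04 over all genes. Among the 3460 other genes whose mean signal lay in the range of the members (11.78 to 16.52 without the dim NDUFA4L2), 27.4% were higher, 23.8% were lower and the median difference was 0.01. The arrays of the 2 lines did not overlap for 34 of 39 subunits (87.2%), against 48.9% of all genes. The middle subunit signal, taken over 37 subunits without NDUFA4 and NDUFA4L2, lay at 13.61 to 13.92 on the CEM PA mock arrays and at 14.66 to 14.77 on the CEM RES mock arrays. Differences above 0 were found for 34 of 39 subunits and for 51.8% of all genes. Set against the single CEM PA mock array of session 1, 34 of 39 subunits were above 0 with a median of 0.81, and against the pair of session 2, 35 of 39 were, with a median of 0.60. By the double threshold of the study's methods (unadjusted p under 0.05 and a log2 difference over 0.75 in size), 14 subunits were higher and 1 was lower, 38.5% of 39, against 34.6% of all genes.

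**Figure D1:**
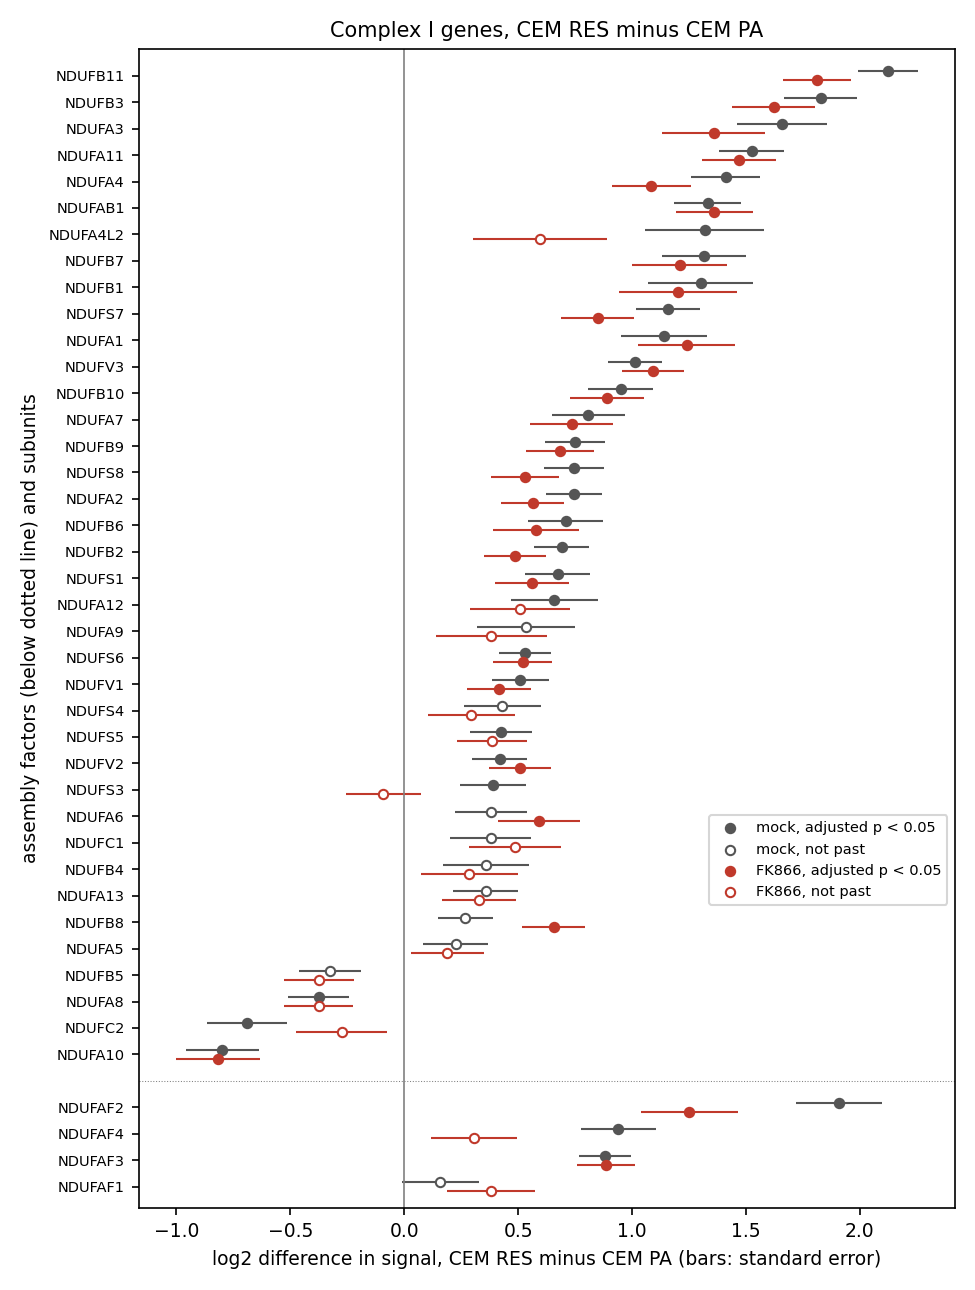
Log2 difference in signal between CEM RES and CEM PA for each of 42 of the 43 genes (points, with standard error bars), in mock-treated cells (grey) and in FK866-treated cells (red), where filled points passed an adjusted p of 0.05 in limma. Most points lie to the right of 0, from 2.12 for NDUFB11 down to -0.80 for NDUFA10 in mock-treated cells.

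The core subunits came first in the description by role, since they carry the electrons. All 3 of the N module rose. NDUFV1, which binds NADH and the flavin, read 15.33, 15.47 and 15.58 in CEM PA mock and 15.99, 16.12, 15.87 and 15.92 in CEM RES mock. The groups did not overlap, and the difference was 0.51 ± 0.12 (SE, adjusted p = 0.00509, limma). NDUFV2, an iron-sulfur subunit beside it, read 14.50, 14.58 and 14.32 against 14.90, 14.89, 14.89 and 14.85, a difference of 0.42 ± 0.12 (SE, adjusted p = 0.0127, limma). NDUFS1, the largest core subunit and also an iron-sulfur protein, read 13.50, 13.43 and 13.18 against 13.93, 14.01, 14.30 and 13.94, a difference of 0.67 ± 0.14 (SE, adjusted p = 0.00221, limma). In all 3 the lowest resistant array was above the highest parental one.

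Those core subunits of the Q module that are named here rose as well. NDUFS7, which carries the last iron-sulfur cluster before ubiquinone, had the largest difference of the core. It read 13.03, 13.37 and 13.50 in CEM PA mock and 14.49, 14.33, 14.50 and 14.54 in CEM RES mock, 1.16 ± 0.14 higher (SE, adjusted p = 5.78e-05, limma). A second NDUFS7 probe was above background on only 1 of 13 arrays and gave no value. NDUFS8, another iron-sulfur subunit, read 13.74, 14.04 and 14.16 against 14.72, 14.63, 14.75 and 14.79, 0.75 ± 0.13 higher (SE, adjusted p = 0.000702, limma). For both genes the resistant arrays were all above the parental ones.

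NDUFS3, also of the Q module, had a smaller difference. It read 14.05, 14.02 and 13.78 against 14.13, 14.35, 14.52 and 14.36, 0.39 ± 0.15 higher (SE, adjusted p = 0.0435, limma). The groups did not overlap, but the nearest arrays were 14.05 and 14.13, and the call was lost without CEM PA mock replicate 3 (0.31, adjusted p = 0.151 in limma) and in 13 other alternatives.

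With NDUFA4 and NDUFA4L2 set aside, the 5 largest rises outside the core were of accessory subunits, mostly of the membrane arm. NDUFB11, whose gene lies on the X chromosome, read 12.99, 12.95 and 12.97 in CEM PA mock and 15.02, 15.02, 15.08 and 15.24 in CEM RES mock. The parental arrays were within 0.05 of each other and the resistant ones lay far above them, 4.35-fold or 2.12 ± 0.13 in log2 (SE, adjusted p = 7.7e-07, limma). NDUFB3, also of the membrane arm, read 12.51, 13.18 and 13.10 against 14.66, 14.83, 14.80 and 14.75, 3.55-fold higher (1.83 ± 0.16, SE, adjusted p = 6.88e-06, limma). NDUFA3 read 13.35, 14.17 and 14.25 against 15.71, 15.47, 15.55 and 15.58, 3.15-fold higher (1.66 ± 0.20, SE, adjusted p = 5.11e-05, limma). In NDUFB3 and NDUFA3 the first CEM PA mock array was lower than its partners, and the groups were still clear of each other.

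NDUFA11, a membrane-spanning accessory subunit, read 13.83, 14.10 and 13.94 against 15.35, 15.49, 15.64 and 15.46. NDUFAB1, the mitochondrial acyl carrier protein that also serves fatty acid and lipoic acid synthesis, read 13.54, 13.41 and 13.20 against 14.51, 14.83, 14.92 and 14.59. Both were higher on every resistant array, NDUFA11 2.88-fold (1.53 ± 0.14, SE, adjusted p = 1.08e-05, limma) and NDUFAB1 2.52-fold (1.33 ± 0.15, SE, adjusted p = 3.2e-05, limma).

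**Figure D2:**
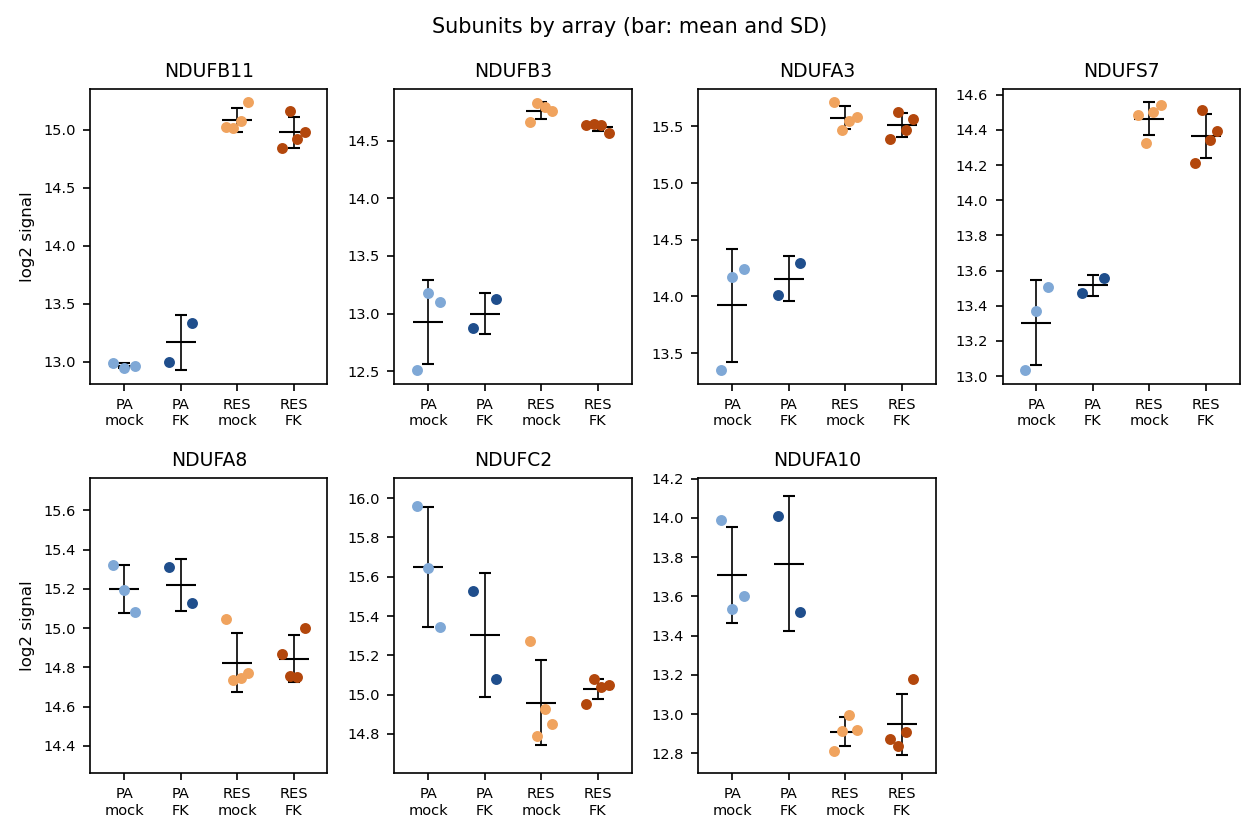
Log2 signal on each array (points) for 7 subunits in the 4 groups, with the mean and SD of each group as a bar, and each panel has its own scale that does not start at 0. NDUFB11, NDUFB3, NDUFA3 and NDUFS7 are higher on all CEM RES arrays than on any CEM PA array, and NDUFA8, NDUFC2 and NDUFA10 are lower in CEM RES mock than in CEM PA mock.

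A further 13 accessory subunits rose. The largest of them were NDUFB7 (1.32), NDUFB1 (1.30), NDUFA1 (1.14), NDUFV3 (1.01) and NDUFB10 (0.95), where NDUFV3 belongs to the N module and the others to the membrane arm. NDUFA7, NDUFB9, NDUFA2, NDUFB6 and NDUFB2 followed with differences of 0.69 to 0.81. NDUFA12 (0.66), NDUFS6 (0.53) and NDUFS5 (0.43) had the smallest rises that passed. NDUFA12 lost its call without CEM PA mock replicate 1 (0.49, adjusted p = 0.0683 in limma), and NDUFS5 lost it without CEM PA mock replicate 1 (0.34, adjusted p = 0.0883) or replicate 3 (0.42, adjusted p = 0.0508). By family, 9 of 15 NDUFA, 8 of 11 NDUFB, 6 of 8 NDUFS, 3 of 3 NDUFV and 0 of 2 NDUFC genes were higher.

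The 3 subunits that fell were NDUFA10, NDUFC2 and NDUFA8. NDUFA10, an accessory subunit on the matrix side of the membrane arm, read 13.99, 13.54 and 13.60 in CEM PA mock and 12.81, 12.92, 12.997 and 12.92 in CEM RES mock. It was lower on all resistant arrays by 1.74-fold (-0.80 ± 0.16 in log2, SE; adjusted p = 0.00172, limma). The array held 3 NDUFA10 probes, and the other pair, dimmer at mean log2 signals of 9.30 and 8.73, was lower as well (-0.74 and -1.10, adjusted p = 0.0300 and 0.000873 in limma over all probes).

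NDUFC2, a membrane arm subunit, read 15.96, 15.64 and 15.35 against 15.27, 14.79, 14.92 and 14.85, a difference of -0.69 ± 0.18 (SE, adjusted p = 0.00698, limma). The groups did not overlap, though the nearest arrays were 15.35 and 15.27. A second, dim NDUFC2 probe (mean log2 signal 5.39) differed by 0.12 and did not pass, and scaling each array to its 75th percentile ended the call for NDUFC2 (-0.47, adjusted p = 0.0642 in limma), as did the mean of its probes (-0.28, adjusted p = 0.255). NDUFA8, an accessory subunit that faces the intermembrane space, read 15.32, 15.20 and 15.08 against 15.05, 14.73, 14.74 and 14.77, a difference of -0.38 ± 0.13 (SE, adjusted p = 0.0355, limma). The call of NDUFA8 was lost in 9 alternatives, among them the 75th percentile scaling (-0.19, adjusted p = 0.348 in limma) and the fit without CEM PA mock replicate 1 (-0.31, adjusted p = 0.117).

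Among the accessory subunits 9 did not pass: NDUFA9 (0.53), NDUFS4 (0.43, adjusted p = 0.0504 in limma), NDUFA6 (0.38), NDUFC1 (0.38), NDUFB4 (0.36), NDUFA13 (0.36), NDUFB8 (0.27), NDUFA5 (0.23) and NDUFB5 (-0.33). Of these, NDUFS4 is an accessory subunit joined late in assembly. NDUFB5 was measured by 2 probes that pointed in opposite directions, -0.33 for the brighter and 0.42 for the dimmer one, and neither passed (adjusted p = 0.0686 and 0.0624 in limma over all probes).

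NDUFA4 and NDUFA4L2 carry the family name, but NDUFA4 is now placed in complex IV, and NDUFA4L2 is its paralog, known to be induced in low oxygen. NDUFA4 read 14.48, 14.94 and 14.80 in CEM PA mock and 15.93, 16.29, 16.24 and 16.15 in CEM RES mock, 2.66-fold higher (1.41 ± 0.15, SE, adjusted p = 2.83e-05, limma). NDUFA4L2 was the dimmest member, at 4.88, 3.82 and 4.14 against 5.25, 5.37, 5.88 and 5.89, and rose by 1.32 ± 0.26 (SE, adjusted p = 0.00148, limma). The size of the NDUFA4L2 rise depended on the processing, from 0.42 with normexp background correction to 1.69 with array quality weights, and it passed in each alternative. Neither gene overlapped between the lines, and without them 24 of 37 subunits were higher and 3 lower.

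Most NDUFAF assembly factors were also higher in the resistant line, with 3 of 4 past the threshold and a median difference of 0.91. Over all genes 47.7% passed, 24.7% higher and 23% lower, with a median of 0.04, and 4 genes are too few to compare shares. NDUFAF2, a paralog of the subunit NDUFA12 that acts late in assembly, read 10.42, 10.92 and 10.46 in CEM PA mock and 12.47, 12.50, 12.70 and 12.36 in CEM RES mock. It was 3.76-fold higher with no overlap (1.91 ± 0.19, SE, adjusted p = 1.42e-05, limma). NDUFAF3 and NDUFAF4 bind each other and act early on the Q module. NDUFAF3 read 15.93, 16.04 and 15.99 against 16.88, 16.96, 16.82 and 16.81, 1.84-fold higher (0.88 ± 0.11, SE, adjusted p = 9e-05, limma). NDUFAF4 read 11.31, 11.40 and 11.07 against 12.11, 12.45, 12.32 and 11.92, 1.92-fold higher (0.94 ± 0.17, SE, adjusted p = 0.000733, limma). In both, every resistant array was above every parental one.

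NDUFAF1, which builds the membrane arm with other factors, was the exception. It read 12.42, 12.12 and 11.80 against 12.17, 12.31, 12.45 and 12.15, the groups overlapped, and the difference of 0.16 ± 0.17 (SE) did not pass (adjusted p = 0.471, limma).

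**Figure D3:**
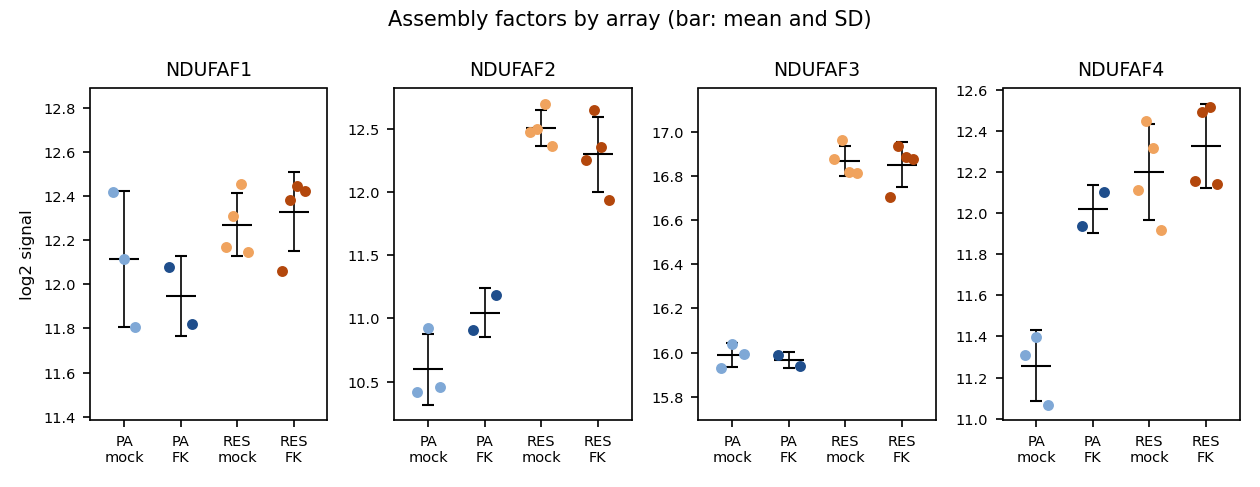
Log2 signal on each array (points) for the 4 NDUFAF assembly factors in the 4 groups, with the mean and SD of each group as a bar, and each panel has its own scale that does not start at 0. NDUFAF2 and NDUFAF3 are higher in CEM RES under both mock and FK866 treatment, and NDUFAF1 overlaps. NDUFAF4 in CEM PA FK866 (11.94 and 12.10) lies above CEM PA mock and overlaps CEM RES mock.

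The lines were also compared under FK866. This comparison takes its means from other arrays, but it shares the estimate of spread with the first in 1 model, and mock and FK866 arrays of the same replicate number deviated together, so it is no separate check of the first. In CEM RES FK866 against CEM PA FK866, 24 of 39 subunits were higher and 1 was lower (NDUFA10) past an adjusted p of 0.05 in limma, where 35.5% of all genes passed, 18.6% higher and 16.9% lower. The median difference was 0.56 over the subunits and 0.09 over all genes. Without CEM PA FK866 replicate 1 the subunit count was 13, all higher, and the share of all genes that passed was 18.3% in place of 35.5%, where the spread of the lone parental FK866 array was taken from the other groups. NDUFB11 read 12.998 and 13.34 in CEM PA FK866 and 14.85, 15.16, 14.92 and 14.98 in CEM RES FK866, again the largest difference (1.81 ± 0.15, SE, adjusted p = 1.46e-05, limma). NDUFA10 read 14.01 and 13.52 against 12.87, 12.84, 12.91 and 13.18, with no overlap (-0.82 ± 0.18, SE, adjusted p = 0.00487, limma).

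Which subunits passed differed somewhat from the mock comparison. NDUFA6 (0.59) and NDUFB8 (0.66) passed only under FK866. A second NDUFB8 probe of about the same brightness (mean log2 signal 16.20 against 16.22) differed by 0.25 under FK866 and did not pass (adjusted p = 0.250 in limma over all probes). NDUFS3 (-0.09), NDUFA12 (0.51), NDUFS5 (0.39), NDUFA4L2 (0.60), NDUFC2 (-0.27) and NDUFA8 (-0.37) passed only in mock-treated cells, although a dimmer second NDUFA12 probe passed in both (1.29 in mock, 0.68 under FK866). None of these genes passed a test of the change in the line difference, which is given below. Among the assembly factors NDUFAF2 (1.25, adjusted p = 0.000964 in limma) and NDUFAF3 (0.89, adjusted p = 0.000377) were higher under FK866. NDUFAF4 differed by 0.31 (adjusted p = 0.226, limma) and NDUFAF1 by 0.38 (adjusted p = 0.143).

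No member passed the test for FK866 in the parental line in the reported fit, which does not pair arrays by replicate number. In CEM PA FK866 against CEM PA mock, 0 of 43 members passed an adjusted p of 0.05 in limma, where 0.512% of all genes did (90 genes). That number of genes was unsteady, from 0 with only the groups compared and 1 with slide as a block to 503 with the replicate block and 687 with array quality weights, and it was 17 and 12 without CEM PA FK866 replicate 1 and replicate 2, and 25, 19 and 57 without CEM PA mock replicates 1, 2 and 3. In the reported fit 3 members were under an unadjusted p of 0.05, against 13.5% of all genes. The median difference was 0.06 over the subunits and -0.02 over all genes. The subunit median had no steady sign, at -0.042 without CEM PA FK866 replicate 2, -0.0185 without CEM PA mock replicate 1, 0.12 without CEM PA FK866 replicate 1 or CEM PA mock replicate 2 and 0.18 under 75th percentile scaling. By the double threshold 0 of 39 subunits and 1 of 4 assembly factors passed, where 5.47% of all genes did.

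The assembly factor was NDUFAF4. It read 11.31, 11.40 and 11.07 in CEM PA mock and 11.94 and 12.10 in CEM PA FK866, with no overlap, a difference of 0.76 ± 0.20 (SE, adjusted p = 0.115, limma). Its difference was 0.63 within scan session 1 and 0.87 within session 2. With the replicate number as a block it was 0.67 with an adjusted p of 0.0448 in limma, and with array quality weights 0.71 with an adjusted p of 0.0485, so the adjusted call changed with these settings. Both values lie under the 0.75 limit, as do those without CEM PA FK866 replicate 2 (0.68) and without CEM PA mock replicate 3 (0.67), so NDUFAF4 then failed the double threshold.

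The subunits with the smallest p in CEM PA were NDUFS3 and NDUFB8. NDUFS3 read 14.05, 14.02 and 13.78 in mock and 14.49 and 14.34 under FK866, a difference of 0.47 ± 0.17 (SE, adjusted p = 0.263, limma). NDUFB8, a membrane arm accessory subunit, read 16.20, 16.19 and 15.92 against 15.80 and 15.68, a difference of -0.37 ± 0.15 (SE, adjusted p = 0.291, limma). The second NDUFB8 probe differed by -0.21 (adjusted p = 0.649 in limma over all probes). Neither gene overlapped on the probe used, and both kept their sign within each scan session (0.45 and 0.44 for NDUFS3, -0.40 and -0.38 for NDUFB8). With 2 arrays against 3, a lack of overlap weighs little, for NDUFAF4 as well. The sessions split the same arrays, so the signs within them are no separate check. Without NDUFA4L2, the 95% intervals of the subunit differences reached from -0.81 (NDUFC2) to 0.85 (NDUFS3). NDUFA4L2 had a wider interval of -0.01 to 1.35 around 0.67.

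No member passed the test for FK866 in the resistant line either. In CEM RES FK866 against CEM RES mock 0 of 43 members passed the adjusted p in limma, as did 0 of 17594 genes (0%), and 0 members were under an unadjusted p of 0.05, against 4.78% of all genes. No member passed the double threshold, which 1.34% of all genes did. The 95% intervals of the subunits other than NDUFA4L2 ran from -0.49 (NDUFA7) to 0.50 (NDUFA1). Among the smallest p values were those of NDUFAF2 (-0.21 ± 0.17, SE) and NDUFA7 (-0.16 ± 0.15), both with overlapping groups and an adjusted p of 1 in limma. NDUFA7, an accessory subunit, read 14.86, 14.67, 14.77 and 14.65 in mock and 14.74, 14.45, 14.67 and 14.42 under FK866. NDUFB3 was the one member whose arrays did not overlap, at 14.66, 14.83, 14.80 and 14.75 in mock and 14.64, 14.65, 14.64 and 14.56 under FK866, where 2.52% of all genes did not. Its difference of -0.14 ± 0.15 (SE) did not pass (adjusted p = 1, limma).

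**Figure D4:**
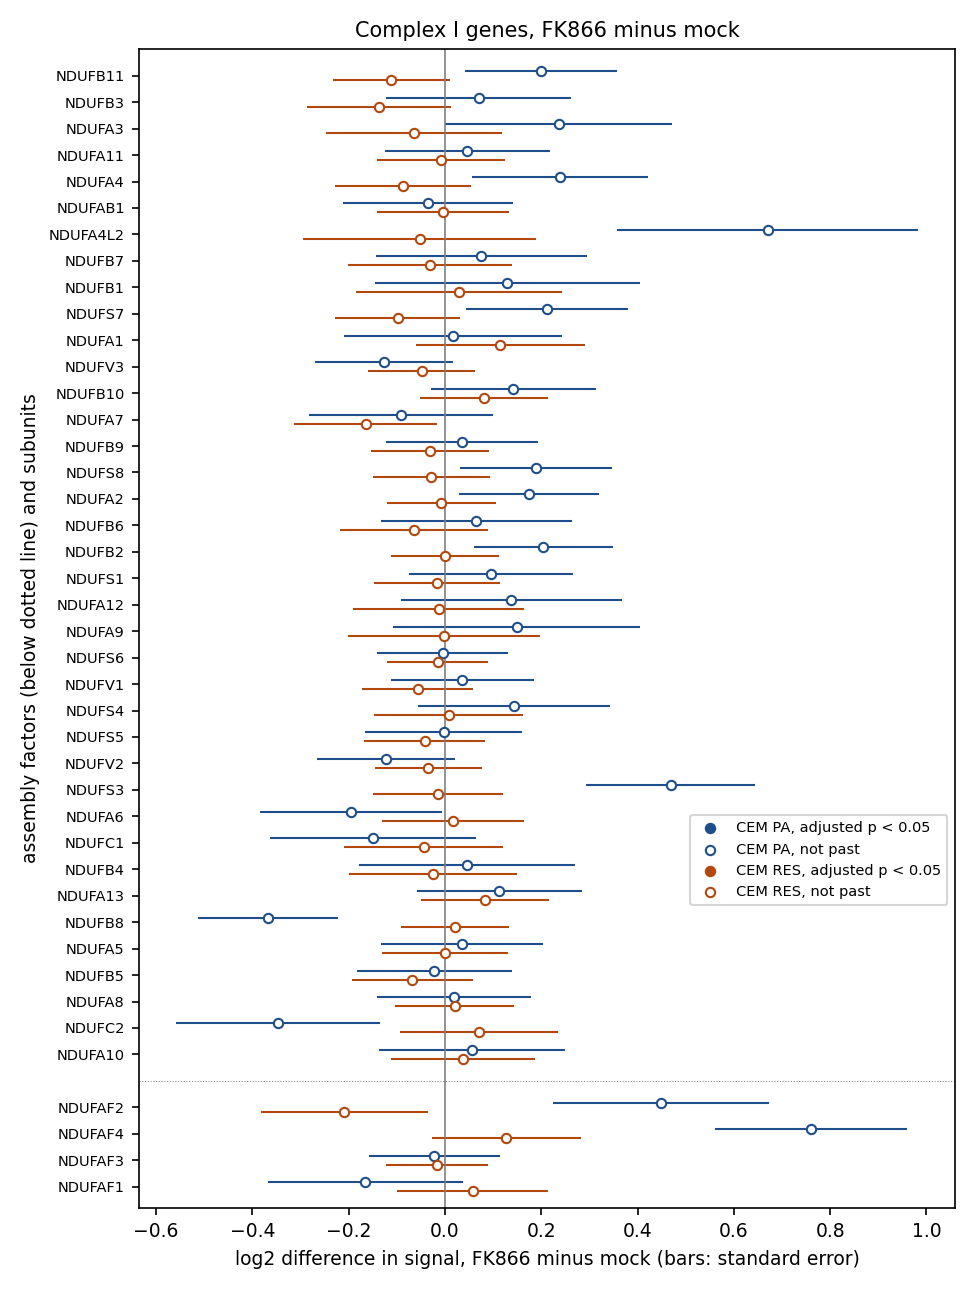
Log2 difference in signal between FK866 and mock for each of 42 of the 43 genes (points, with standard error bars) in CEM PA (blue) and CEM RES (brown), where all points are open because none passed an adjusted p of 0.05 in limma. Most points lie near 0, with NDUFAF4 (0.76) and NDUFA4L2 (0.67) farthest to the right in CEM PA.

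The responses of the lines were compared by an interaction term. No member passed an adjusted p of 0.05 in limma (lowest 0.394), where 0.131% of all genes did, and 3 members were under an unadjusted p of 0.05, against 11.1% of all genes. These were NDUFAF4 (-0.63 ± 0.25, SE), NDUFAF2 (-0.66 ± 0.28) and NDUFS3 (-0.48 ± 0.22), each with a smaller value in CEM RES than in CEM PA. NDUFAF2 read 10.42, 10.92 and 10.46 in CEM PA mock and 10.91 and 11.18 under FK866, and 12.47, 12.50, 12.70 and 12.36 in CEM RES mock and 12.25, 12.65, 12.35 and 11.94 under FK866. All groups of this gene overlapped within a line. The 2 responses and the 2 line comparisons share their mock and FK866 arrays, so their values are given side by side without a measure of likeness between them.

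The mitochondrial partners of these subunits were measured on the same arrays. Of the 7 complex I genes of mitochondrial DNA, 6 were higher and 1 was lower in CEM RES mock against CEM PA mock (adjusted p under 0.05 in limma), with a median difference of 3.34. Over all genes 24.7% were higher and 23% lower, with a median of 0.04. ND3, a membrane arm core subunit, read 10.52, 10.94 and 10.67 against 14.64, 14.86, 14.52 and 15.31, 17.4-fold higher (4.12 ± 0.19, SE, adjusted p = 1.21e-07, limma). ND4L (4.42), ND2 (3.75), ND1 (3.34) and ND5 (3.25) rose as well, as did ND4 (2.14), for which CEM RES mock replicate 1 was left out as an outlier spot. ND6, the one subunit encoded on the opposite strand, read 8.82, 10.04 and 8.68 against 7.83, 8.54, 7.58 and 7.06, a difference of -1.43 ± 0.45 (SE, adjusted p = 0.0202, limma). Its call was lost in 2 of 24 alternatives.

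Assembly factors listed on the array under other names, some of them older symbols of NDUFAF genes, were taken from a separate list. Of 15, 5 were higher and 0 lower (33.3%), against 47.7% of all genes called and 24.7% called higher, with a median difference of 0.17. The 5 were C17orf89 (1.46), the older symbol of NDUFAF8, ECSIT (1.17), DNAJC30 (1.15), C7orf44 (0.85) and TIMMDC1 (0.58). ACAD9, which works with NDUFAF1 and ECSIT, differed by 0.17 (adjusted p = 0.354, limma). Whether the 2 kinds of assembly factor differ was not tested.

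Among 11 measured regulators of nuclear respiratory genes 6 were higher and 0 lower (54.5%), against 47.7% of all genes called, with a median difference of 0.64. Under FK866, 3 of the 11 were higher and 1 was lower (36.4%, against 35.5% of all genes), with a median of 0.32. TFAM, which packages and transcribes mitochondrial DNA, read 9.99, 10.94 and 10.53 in CEM PA mock and 13.16, 13.15, 13.41 and 12.93 in CEM RES mock, 2.67 ± 0.27 higher (SE, adjusted p = 1.55e-05, limma). MYC (1.93), PPRC1 (0.96), PPARGC1B (0.82), ESRRA (0.71) and NRF1 (0.64) also rose. Of the factors whose letters were searched in the promoters, GABPA differed by 0.01 (adjusted p = 0.958, limma) and YY1 by 0.04 (adjusted p = 0.883).

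The nuclear subunits of complexes II to V were counted in the same way. Of 38, 25 were higher and 2 lower in CEM RES mock, 71.1% in all, with a median difference of 0.62. Beside this stand 74.4% and 0.67 for the 39 genes with a subunit name. For the 37 without NDUFA4 and NDUFA4L2 these values were 73% and 0.66. Over all genes 47.7% passed. Under FK866, 15 of 38 were higher and 1 was lower (42.1%, against 35.5% of all genes), with a median of 0.42. In CEM PA FK866 against CEM PA mock 0 of 38 passed the adjusted p in limma, against 0.512% of all genes, and the median of the 38 was 0.14. There 5 of 38 were under an unadjusted p of 0.05, near the 13.5% of all genes. The difference between these lists was not tested.

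**Figure D5:**
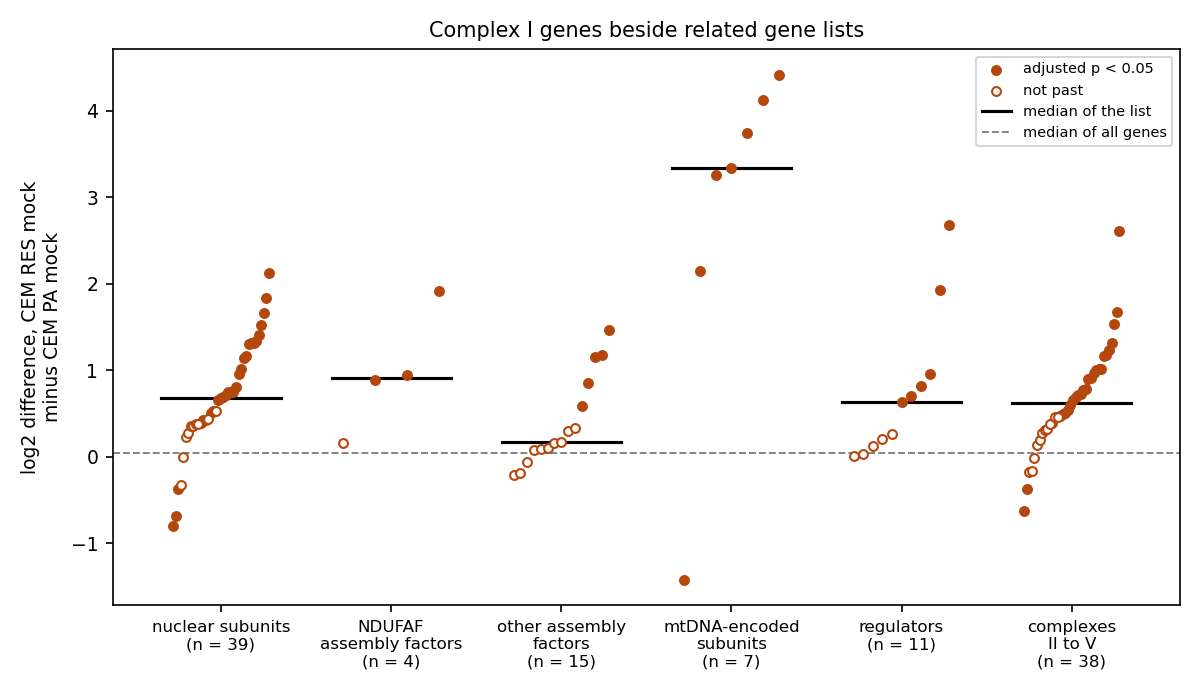
Log2 difference between CEM RES mock and CEM PA mock for the genes of 6 lists (points, filled where the adjusted p in limma was under 0.05), with the median of each list (black bar) and of all genes (dashed line). The mitochondrially encoded subunits have the highest median (3.34), and the other assembly factors (0.17) lie nearest to all genes (0.04). The nuclear subunits by name, NDUFA4 and NDUFA4L2 included (0.67), and those of complexes II to V (0.62) lie close together.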

How the data were processed

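RNA of 13 cultures (3 CEM PA mock, 2 CEM PA FK866, 4 CEM RES mock, 4 CEM RES FK866) had been hybridised to one-colour Agilent 4x44K arrays, with groups taken from the sample titles. The deposited scanner files hold intensity values per spot, which the authors extracted with Agilent Feature Extraction (version 10.7.7.1 in the submitters' processing notes) and which are already background-corrected. The authors also deposited a log2 table, quantile-normalized by their methods and used here as an alternative. Its scale was set against the scanner values.

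Control and outlier spots were left out, log2 signals were quantile-normalized over all arrays, and spots of a probe were averaged. Probes were kept where all arrays of some group read well above background, and a gene was read from its brightest kept probe (17594 genes). A model with 4 groups was fitted with limma 3.58.1 in R 4.3.3 over all genes, with Benjamini-Hochberg adjustment. The script was tested on simulated data.

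Members and gene lists were chosen with earlier results of these data known. Named with values, apart from genes not reported by name, were the core subunits, up to 5 of the largest rises and falls among other subunits, and all assembly factors. NDUFA4, NDUFA4L2, and members past a threshold or with the smallest p under FK866 were named as well. Replicate numbers paired the arrays in CEM RES (correlations of their deviations from the group means 0.217 to 0.484; with only 2 pairs in CEM PA, 0.343 and 0.44). Alternatives covered scaling, background, dim probes, probe choice, the groups fitted, blocks for slide, scan session and replicate, array weights, each array left out, and, added after the data were seen, scan session as a fixed block. RefSeq promoters were matched by symbol, 41 members directly and 1 through a synonym. Some genes that enter the counts are not reported here by name. Amino acid sequences were not used here.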

Additional observations from a re-analysis of the deposited data

Results flagged for a closer look

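In the 2 groups with 4 arrays each, 5 of 86 sets of member values held an array far from the others, its gap to the nearest being past Dixon's limit for 4 values, which chance gives in about 5% of sets. NDUFA2 read 15.29 on CEM RES mock replicate 3, above the other arrays at 15.16 to 15.18. NDUFA8 read 15.05 on CEM RES mock replicate 1, above the others at 14.73 to 14.77. NDUFAF1 read 12.06 on CEM RES FK866 replicate 1, below the others at 12.38 to 12.44. NDUFB3 read 14.56 on CEM RES FK866 replicate 4, below the others at 14.64 to 14.65. NDUFS1 read 14.22 on CEM RES FK866 replicate 3, above the others at 13.95 to 13.99.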

How the results depend on the processing

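Of 354 recomputed counts for the subunits and assembly factors, 344 stayed within 1.5 times the reported one. In CEM RES mock against CEM PA mock the subunit count of 29 became 26 to 32, and 27 to 30 with 1 array left out. The assembly factor count of 3 did not change in any alternative run. Calls of single genes were followed over the alternatives that give 1 value per gene, so the fit of every probe separately is left out. Of the 29 subunits 23 were called in every such alternative, and 8 others were called in at least 1. Under FK866 the subunit count of 25 became 21 to 30, and 13 to 26 with 1 array left out, where 13 was the count without CEM PA FK866 replicate 1. Of the 25, 13 were called in every alternative with 1 value per gene. NDUFB8 was among the 13, though its second probe did not pass under FK866 (adjusted p = 0.250 in limma over all probes). In CEM PA FK866 against CEM PA mock the assembly factor count by adjusted p was 1 in place of 0 with the replicate block and 1 with array quality weights. The subunit count by the double threshold was 1 in place of 0 with array quality weights, and 0 to 1 with 1 array left out. The assembly factor count by the double threshold was 0 in place of 1 with slide as a block, with the replicate block and with array quality weights, and 0 to 1 with 1 array left out. The replicate block changed no other count by over 1.5 times. NDUFB5, whose 2 probes disagree, changed sign with their mean, from -0.33 to 0.046 (lines in mock) and from -0.37 to 0.025 (lines under FK866). With 1 array left out NDUFA5 (0.19) under FK866 ran from -0.057 (without CEM PA FK866 replicate 1) to 0.44. The median of all genes moved under 75th percentile scaling from 0.04 to 0.16 between the lines in mock and that of the subunits to 0.72, with 34 of 39 subunits still above the median of all genes. The causes were not tested. The 2 parental FK866 arrays limit that group most, and NDUFA4L2 lies nearest to background of the 43 genes.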

Other observations

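Among complex I assembly factors listed under other names, 3 of 15 had an unadjusted p under 0.05 for FK866 in CEM PA, against 13.5% of all genes, and none passed the adjusted p in limma. ECSIT read 10.71, 10.61 and 10.71 in CEM PA mock and 11.39 and 11.32 under FK866 (0.68, adjusted p = 0.0923 in limma), with no overlap. TIMMDC1, an inner membrane protein needed to build the membrane arm, read 13.94, 13.97 and 13.64 against 13.21 and 13.35 (-0.57, adjusted p = 0.187 in limma), also with no overlap. With 2 arrays against 3, a lack of overlap weighs little. Over the alternatives the adjusted p of ECSIT ran from 0.0218 to 0.782 and that of TIMMDC1 from 0.0428 to 0.774.

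Among the regulators 2 of 11 passed the adjusted p in limma for FK866 in CEM PA (18.2%, against 0.512% of all genes), both close to the threshold. GABPB1, the partner of GABPA, read 10.89, 10.96 and 10.84 in CEM PA mock and 11.84 and 11.85 under FK866 (0.95, adjusted p = 0.0499 in limma). TFB1M, a methyltransferase of mitochondrial ribosomal RNA, read 11.35, 11.72 and 11.95 against 10.50 and 10.71 (-1.07, adjusted p = 0.0489 in limma). Neither overlapped, which weighs little with 2 arrays against 3. GABPB1 lost its call in 18 of 25 alternatives and TFB1M in 14 of 25. Leaving out any 1 of the 5 CEM PA arrays ended the call of GABPB1 (adjusted p = 0.106 to 0.299 in limma). That of TFB1M was lost without CEM PA FK866 replicate 1 (0.273) or replicate 2 (0.230) and without CEM PA mock replicate 2 (0.114) or replicate 3 (0.0989), but not without CEM PA mock replicate 1 (0.0418). In CEM RES the same genes differed by -0.04 and -0.12 under FK866.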
